A study of Mus musculus with 4 samples.

Results

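CA3 pyramidal neurons are the excitatory cells of hippocampal field CA3. They receive the mossy fibres of dentate granule neurons on large spines near the cell body, excite each other through recurrent collaterals, and send the Schaffer collaterals to CA1. This recurrent wiring is what the field is known for in memory storage and in the spread of seizure discharges. Kainate receptors with the Grik4 subunit sit at the mossy fibre synapse, and Nectin3 is an adhesion molecule on the CA3 side of that contact.

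Nuclei of these neurons were taken from single-nucleus RNA sequencing of the hippocampus of 2 wild-type (WT) mice and 2 heterozygous Cyfip2+/R87C knock-in (KI) mice, with 1 droplet library per mouse. The KI mice carried arginine 87 changed to cysteine in 1 copy of Cyfip2 in every cell of the body, a change that the labels of KI replicate 2 spell once as R88C. Cyfip2 encodes a subunit of the WAVE complex, which drives branching of actin filaments. All mice were untreated adults, both hippocampi were frozen, and the labels give the same batch for the 4 libraries.

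The nuclei were chosen by the counts of a few genes, so the levels of these genes are a description and no result. Each barcode had at least 500 genes and under 5% mitochondrial unique molecular identifiers (UMIs, each 1 captured RNA molecule). It had at least 2 UMIs of Grik4, 1 of Nectin3, and 1 of at least 2 among Iyd, Coch, Elavl2, Spock1, Cpne4 and Cdh24. It had at most 1 UMI of Gad1 and Gad2 together, and fewer than 2 genes of either a granule cell set (Prox1, Glis3, Dsp, Trpc6) or a glial set (Mobp, Mog, Prr5l, Gja1, Fgfr3, Inpp5d). The rule kept 2737 of 55295 nuclei (4.95%), of which 915 came from WT replicate 1, 711 from WT replicate 2, 569 from KI replicate 1 and 542 from KI replicate 2. These nuclei held 8088529 and 7196007 UMIs in WT and 6350414 and 5230105 in KI, with medians of 8024, 9251, 9960 and 8872 UMIs per nucleus in the same order. No CA3 barcode occurred in more than 1 library. Scrublet, which scores nuclei by their likeness to simulated doublets, put 146 of the nuclei over a score of 0.25, and they were kept.

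Nuclei just inside the rule (2 UMIs of Grik4 and 2 of the 6 further genes) numbered 24 to 37 per library, and nuclei that missed 1 of the positive limits by a single step numbered 669 to 799. Kcnq5, a potassium channel gene that the rule did not use, stood at 4397 to 5260 counts per 1000000 UMIs (CPM) over all CA3 nuclei, at 835 to 1599 CPM just inside and at 1443 to 2157 CPM just outside. Both margins were therefore lower in this CA3 marker than the bulk of the nuclei.

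The label was checked against 12 CA3 markers outside the rule. Their summed level was 5313 to 6257 CPM in the 4 CA3 libraries. It was 1426 to 1776 CPM in nuclei gated as CA1 pyramidal neurons (2100 nuclei, by Fibcd1, Spink8 and other CA1 markers) and 607 to 719 CPM in nuclei gated as dentate granule neurons (DG, 4935 nuclei). In nuclei gated as inhibitory neurons it was 1072 to 1313 CPM, and in those gated as oligodendrocytes 2034 to 2503 CPM, above CA1. Kcnq5 made up most of the sum in CA3 nuclei. Set against CA1 and DG nuclei, 8 of the 12 were highest in CA3 nuclei in every library. The other 4 were St18, which was highest in DG nuclei, Ociad2 and Prss23, which were not higher in CA3 than in CA1 nuclei of every library, and Dkk3, which was lower in CA3 than in CA1 nuclei of all 4 libraries. The 7 CA1 markers summed to 194 to 228 CPM and the 8 DG markers to 237 to 275 CPM in CA3 nuclei. The CA1 markers chose the CA1 nuclei and 4 of the DG markers were used against granule cells in the rule, so these sums say nothing for the label. Beside the rule genes, Kcnq5, the collagen-binding Ccbe1, the growth inhibitor Rerg and the olfactory receptor genes Olfr78 and Olfr553 were among the genes most raised over all other nuclei. The sum of the 12 was higher in CA3 nuclei than in each of the other gates in every library, but it rests mostly on Kcnq5, and 4 of the 12 markers were not highest there.

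**Figure D1:**
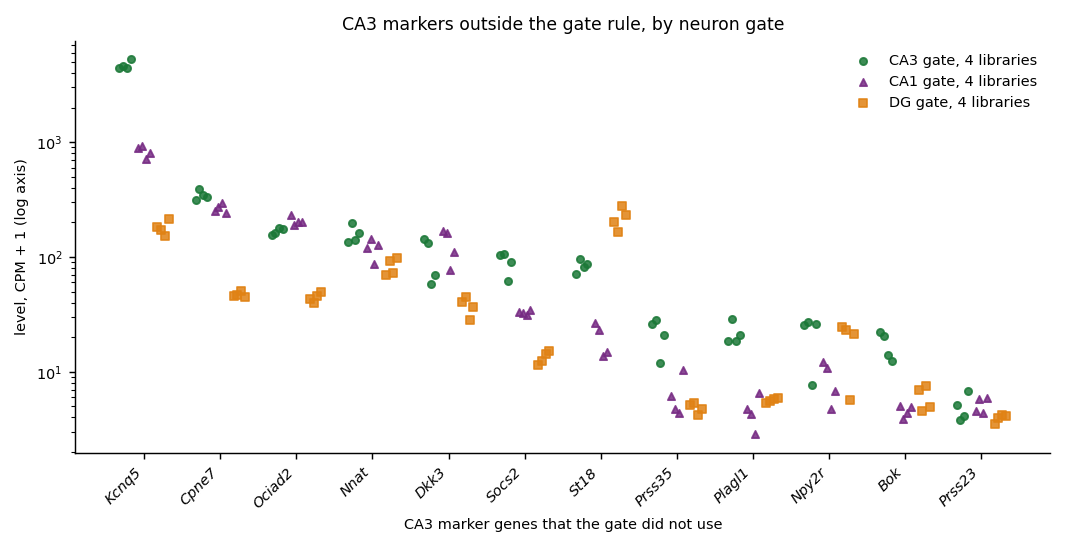
Levels (CPM + 1, log axis) of the 12 CA3 marker genes outside the rule, with 1 point per library for CA3, CA1 and DG nuclei. Kcnq5 stands apart at 4397 to 5260 CPM in the CA3 libraries, and several other markers overlap between CA3 and CA1 nuclei.

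CA3 nuclei made up a smaller share of the KI libraries. The share was 5.73% (95% exact Clopper-Pearson interval 5.37 to 6.10) in WT replicate 1, 5.40% (5.02 to 5.80) in WT replicate 2, 4.53% (4.17 to 4.91) in KI replicate 1 and 3.99% (3.66 to 4.33) in KI replicate 2. These intervals cover counting error only. The means were 5.56% ± 0.229 (SD, n = 2) and 4.26% ± 0.386 (SD, n = 2), a log2 ratio of -0.39, and the groups did not overlap. A 2-sided exact permutation test gave p = 0.3333, the smallest that 2 mice against 2 allow. When both counts were limited to nuclei with a UMI of Slc17a7, the vesicular glutamate transporter, and none of the glial set, the shares were 11.9% and 9.61% in WT and 9.96% and 7.10% in KI, and the groups overlapped. This kept 623 of 915, 517 of 711, 332 of 569 and 334 of 542 CA3 nuclei in WT 1, WT 2, KI 1 and KI 2, fewer in proportion in KI. Part of the rule itself moved with genotype: Cdh24 was detected in 28.0% and 26.9% of WT and in 9.84% and 15.3% of KI CA3 nuclei, and Iyd in 13.7% and 11.4% against 7.56% and 9.41%. How far this lowered the KI shares was not tested. Fewer CA3 nuclei in the tissue and fewer that passed the rule cannot be told apart here.

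The counts of each library's CA3 nuclei were summed, and KI was set against WT with edgeR's quasi-likelihood test and Benjamini-Hochberg adjustment over all genes tested. An adjusted p under 0.05 was reached by 524 of 14819 genes (3.54%). In KI 336 of them rose (2.27%) and 188 fell (1.27%). In all 524 the WT and KI libraries did not overlap, as was the case in 7948 of the genes tested. The median log2 fold change over all genes tested was -0.00 with TMM scaling and -0.09 with library totals, which split 425 calls into 197 higher and 228 lower. The KI libraries were less alike than the WT libraries, with a standard deviation of the log2 difference between replicates of 0.512 against 0.317 over genes. The number of calls rested on single libraries: it was 160 without WT replicate 1, 236 without WT replicate 2, 1515 without KI replicate 1 and 4452 without KI replicate 2. A stricter rule (3 Grik4 UMIs and 3 further genes) gave 215 calls, of which 213 were among the 524.

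Of the 12 CA3 markers outside the rule, 1 fell and none rose between WT and KI, beside 1.27% and 2.27% of all genes, with a median log2 fold change of -0.10. Without KI replicate 2 there were 5 lower calls and 1 higher call, where 13.9% of all genes were called lower and 14.7% higher. The one that fell was Dkk3, a secreted protein of the Dickkopf family, at 143 and 130 CPM in WT mice against 57.3 and 68.8 CPM in KI mice (-1.03 ± 0.133, adjusted p = 0.00589 by edgeR), without overlap. Dkk3 is one of the markers that were not highest in CA3 nuclei. Kcnq5 had a log2 fold change of 0.18 (adjusted p = 0.301 by edgeR).

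**Figure D2:**
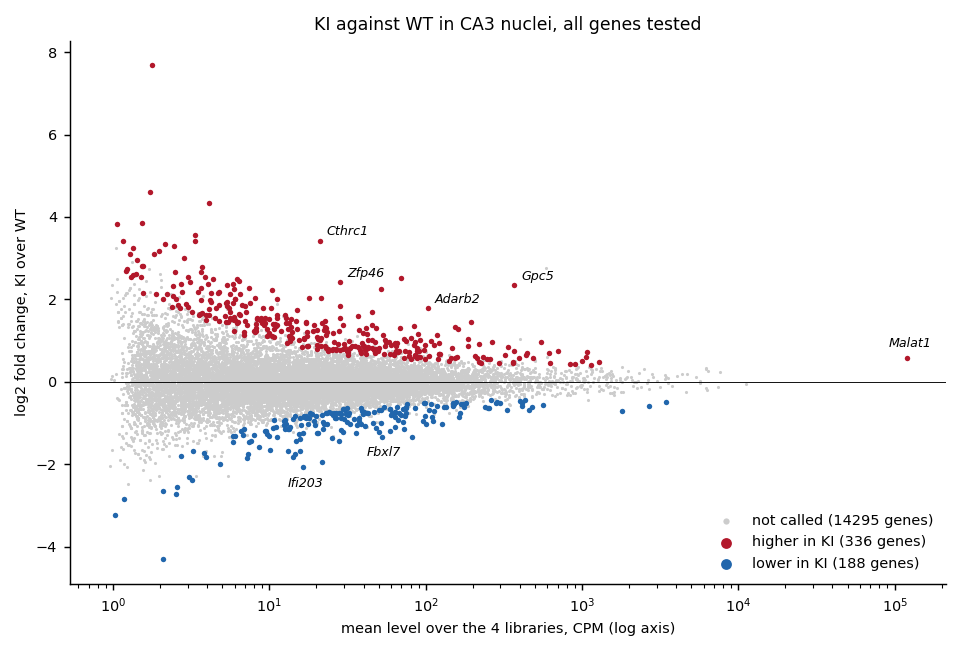
Log2 fold change of KI over WT against the mean level (CPM, log axis) for the 14819 genes tested in CA3 nuclei. The 336 genes called higher are red and the 188 called lower are blue, and the small fold changes called at high levels include Malat1 at the right edge.

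Cyfip2 itself stood at 200 and 186 CPM in the WT mice and at 211 and 198 CPM in KI CA3 nuclei (log2 fold change 0.18, adjusted p = 0.427 by edgeR), and the groups overlapped. A 3' count cannot show the single base change, so this level does not check the genotype. None of the 9 WAVE complex genes passed by edgeR or DESeq2, and 2 had an unadjusted p under 0.05 by edgeR. The related gene Cyfip1 was at 163 and 177 CPM against 202 and 202 CPM (adjusted p = 0.112), without overlap.

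The largest changes among genes of at least 10 CPM were led by Cthrc1, a secreted collagen-related protein. It stood at 3.83 and 3.61 CPM in the WT mice and at 24.3 and 52.0 CPM in KI CA3 nuclei (log2 fold change 3.42 ± 0.345 SE, adjusted p = 0.00176). It was detected in 3.28% and 3.09% of WT and in 20.9% and 31.7% of KI nuclei, so the rise was spread over many nuclei. Gpc5, a glypican that carries heparan sulfate at the cell surface, was at 122 and 134 CPM against 501 and 720 CPM (2.34 ± 0.152, adjusted p = 0.000129), the smallest adjusted p of all genes. It was detected in 29.4% and 32.9% of WT nuclei and 65.6% and 67.0% of KI nuclei. Zfp46, a zinc finger gene, was at 9.52 and 9.59 CPM against 66.1 and 27.9 CPM (2.41 ± 0.353), with a wide gap between the KI mice. It was also higher in CA1 and DG nuclei of both KI mice. Cthrc1 lies on chromosome 15 (39076932 to 39087121), Gpc5 on chromosome 14 (115092215 to 116525179) and Zfp46 on chromosome 4 (136284683 to 136293942) of GRCm38.

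Itga2, Itga11 and Lama3, which are in none of the lists, were among the other genes that rose. The integrin subunit Itga2, part of a collagen receptor, was at 6.92 and 7.78 CPM in the WT mice and at 27.9 and 29.1 CPM in KI (2.04 ± 0.190). Itga11, another collagen receptor subunit, was at 12.9 and 13.5 CPM against 48.7 and 39.0 CPM (1.83 ± 0.185). The laminin chain Lama3 was at 8.16 and 9.59 CPM against 28.7 and 39.4 CPM (2.02 ± 0.206). In each of these genes both KI mice stood well above both WT mice. Of the 29 matrix and perineuronal net genes tested, 4 rose (Cthrc1, Col4a1, Col4a2, Col25a1) and Col15a1 fell, beside 2.27% and 1.27% of all genes, and the median log2 fold change was 0.10. This list holds Spock1, which the rule used, and Cthrc1, which led the largest changes above. Col4a1, a basement membrane collagen, was at 62.1 and 62.0 CPM against 122 and 92.5 CPM (0.89 ± 0.159, adjusted p = 0.0174). Of 13 alternatives the call was lost in 3 for Col4a1, 5 for Col4a2, 6 for Col25a1 and 8 for Col15a1, for each of them also without WT replicate 1 and without WT replicate 2.

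Among the remaining named genes that rose, Plekha2, which binds phosphoinositides, was at 4.57 and 3.06 CPM against 15.3 and 18.7 CPM (2.22 ± 0.268), and the nucleotide receptor P2ry6 at 3.96 and 5.56 CPM against 19.7 and 15.7 CPM (2.00 ± 0.259). Nek10, a kinase, was at 5.32 and 9.31 CPM against 17.0 and 28.7 CPM (1.73 ± 0.298). Btk, a kinase known from B cells and microglia, was at 4.70 and 5.003 CPM against 19.8 and 11.3 CPM (1.79 ± 0.309). The microglia markers other than Inpp5d, which the rule limited, summed to 118 and 129 CPM in the WT mice and to 116 and 105 CPM in KI CA3 nuclei, but single markers went different ways. Csf1r was at 2.84 and 3.34 CPM against 5.83 and 4.398 CPM and Cx3cr1 at 10.1 and 10.4 CPM against 12.6 and 11.7 CPM, both without overlap and neither past the test (adjusted p = 0.204 and 0.414 by edgeR), while P2ry12 was lower in both KI mice. Their part in the rise of Btk was not tested. Of 13 alternative settings Btk lost its call in 1, the stricter rule, and Nek10 in 2, the stricter rule and the rule without Grik4.

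Adarb2 and Apod are markers of other cell types. Adarb2, an interneuron marker, was at 63.2 and 33.4 CPM in the WT mice and at 148 and 166 CPM in KI (1.79 ± 0.237, adjusted p = 0.00652). The 5% of nuclei richest in it held 60.1% and 51.7% of its UMIs in WT and 78.3% and 89.1% in KI, with a single nucleus at 498 UMIs in KI replicate 2. The rise of this gene thus lay in few nuclei, and its call was lost with the stricter rule and with the rule without Grik4. Apod, a lipid carrier of oligodendrocytes, was at 23.9 and 14.7 CPM against 133 and 36.5 CPM (2.24 ± 0.480, adjusted p = 0.0339), and lost its call in 4 of 13 alternatives. Counted per nucleus, Apod stood at 0.211, 0.149, 1.49 and 0.352 UMIs in WT 1, WT 2, KI 1 and KI 2 CA3 nuclei. In each library its mean over CA3, CA1, DG and inhibitory nuclei differed by 1.11- to 1.14-fold. That ratio varied widely among called genes. Examples are 1.21 to 1.40 for Calr, 1.57 to 1.78 for Grin1, 12.5 to 22.3 for Cthrc1 and 34.8 to 71.1 for Adarb2. Ptgds, a prostaglandin synthase of oligodendrocytes and meninges, rose by 1.35 ± 0.202 and also differed by no more than 1.30-fold between these neuron types. The 9 oligodendrocyte markers summed to 316 and 216 CPM in the WT mice and to 402 and 344 CPM in KI CA3 nuclei. Apod and Ptgds are in that list, and Mobp, Mog and Prr5l were limited by the rule. The other 4 summed to 216 and 146 CPM against 114 and 194 CPM, with overlap. The 10 inhibitory markers summed to 127 and 95.2 CPM against 199 and 226 CPM. Without Adarb2, and without Gad1 and Gad2, which the rule limited, the other 7 summed to 46.98 and 50.4 CPM against 39.8 and 48.2 CPM.

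**Figure D3:**
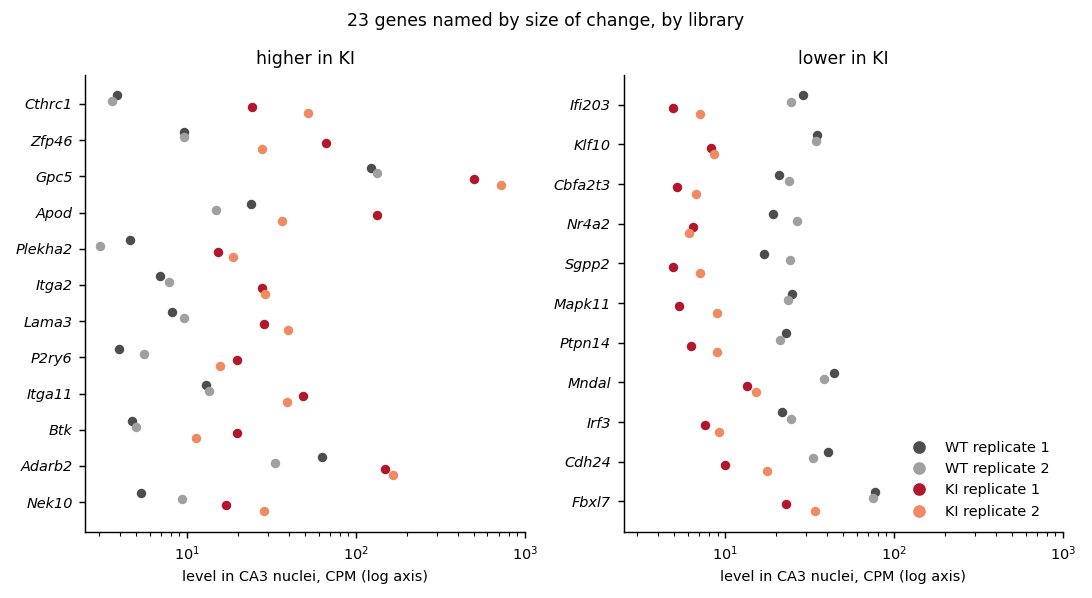
Levels in CA3 nuclei (CPM, log axis) of 12 genes with the largest rise and 11 genes with the largest fall in KI, with 1 point per library. WT and KI points do not overlap in any of the 23 genes, because genes were named only without overlap. Zfp46 and Apod show the widest gap between the KI replicates.

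Among the named genes of at least 10 CPM, the largest falls were those of Ifi203 and Klf10. Ifi203, an interferon-induced gene of the Ifi200 family, was at 28.8 and 24.5 CPM in the WT mice and at 4.88 and 7.07 CPM in KI (-2.08 ± 0.230, adjusted p = 0.00334). Its family member Mndal was at 43.9 and 38.4 CPM against 13.4 and 15.1 CPM (-1.44 ± 0.175, adjusted p = 0.00485). Both lie on chromosome 1, Mndal from 173849126 to 173942491 and Ifi203 from 173920407 to 173942672, so the annotations overlap and reads of these related genes may not be told apart. In CA1 nuclei Ifi203 was at 0.940 and 0.618 CPM and Mndal at 1.17 and 1.65 CPM in WT, so among these neurons both were largely genes of CA3 nuclei. Of the 10 interferon-induced genes tested, 3 fell (Ifi203, Mndal, Ifi27), beside 1.27% of all genes, none rose, and the median was -0.54 against -0.00 over all genes. Ifi203 and Mndal are the genes named above for their falls, and the list was chosen with earlier results known. This count is therefore a description. Ifi27 lost its call in 7 of 13 alternatives, among them without WT replicate 1 and without WT replicate 2. Irf3, an interferon regulatory factor that is not in that list, was at 21.8 and 24.6 CPM against 7.56 and 9.18 CPM (-1.38 ± 0.202).

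Klf10, a Krüppel-like factor induced by growth factors and activity, was at 35.0 and 34.6 CPM in the WT mice and at 8.19 and 8.604 CPM in KI (-1.96 ± 0.183, adjusted p = 0.00128). Detection fell from 25.1% and 29.4% of nuclei to 8.61% and 7.20%. Cbfa2t3, a transcriptional corepressor, was at 20.8 and 23.8 CPM against 5.20 and 6.69 CPM (-1.82 ± 0.220). Mapk11, the p38 beta kinase, was at 25.0 and 23.6 CPM against 5.35 and 8.99 CPM (-1.69 ± 0.238). Sgpp2, a sphingosine-1-phosphate phosphatase, was at 16.9 and 24.04 CPM against 4.88 and 7.07 CPM (-1.69 ± 0.260). Ptpn14, a tyrosine phosphatase, fell by 1.45 on the log2 scale and Fbxl7, an F-box protein, by 1.33. Cdh24, a cadherin that the rule used, was at 40.6 and 33.2 CPM against 9.92 and 17.6 CPM. Its level is conditioned by the rule, which demanded it or another gene of its set.

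Of the 31 tested in a list of 35 immediate-early and activity-regulated genes, 7 fell, beside 1.27% of all genes, and none rose. A positive log2 fold change was seen in 10, and the median was -0.34 against -0.00 over all genes tested. The 7 were the transcription factors Nr4a2, Nr4a3, Fosl2 and Klf10, the synaptic genes Arc and Homer1, and the prohormone convertase Pcsk1. Klf10 and Nr4a2 are also among the genes named for the largest falls. The list was chosen with earlier results known, so this count is a description. Without KI replicate 1 the list had 11 lower and 0 higher calls, where 4.51% and 5.28% of all genes were called lower and higher, and without KI replicate 2 it had 14 and 4, where 13.9% and 14.7% were. The orphan nuclear receptor Nr4a2 was at 19.2 and 26.7 CPM in the WT mice and at 6.46 and 6.12 CPM in KI (-1.76 ± 0.236, adjusted p = 0.00652). Nr4a3 was at 59.3 and 65.9 CPM against 31.3 and 27.2 CPM (-0.999 ± 0.155, adjusted p = 0.0106). Homer1, a postsynaptic scaffold with an activity-induced short form, was at 212 and 213 CPM against 137 and 136 CPM (-0.55 ± 0.110, adjusted p = 0.0274). Arc was at 6.92 and 8.62 CPM against 1.57 and 2.10 CPM (-1.99 ± 0.350), and Pcsk1 at 21.9 and 24.9 CPM against 8.50 and 10.1 CPM (-1.24 ± 0.197). Per nucleus, Arc, Nr4a3 and Klf10 were also lower in both KI mice in CA1, DG, inhibitory and oligodendrocyte nuclei. Arc was at 0.0284, 0.0306, 0.00922 and 0.00892 UMIs per oligodendrocyte nucleus of WT 1, WT 2, KI 1 and KI 2. Homer1, Pcsk1, Fosl2 and Nr4a2 were also lower in CA1 and inhibitory nuclei, but not in every gate. These falls were thus not seen in CA3 nuclei alone. Npas4 and Egr1 had log2 fold changes of -1.80 and -1.24 and did not pass in edgeR (adjusted p = 0.0685 and 0.0875). The brain-derived neurotrophic factor gene Bdnf was at 53.2 and 55.9 CPM against 30.1 and 30.4 CPM (-0.76 ± 0.145, adjusted p = 0.0225), and its receptor Ntrk2 at 349 and 340 CPM against 223 and 237 CPM (-0.49 ± 0.105). Homer1, Bdnf and Ntrk2 each lost their call without WT replicate 1 and without WT replicate 2 (as did Fosl2), and Nr4a3, Arc and Pcsk1 without WT replicate 2. The stricter rule also ended the calls of Homer1, Ntrk2, Fosl2 and Pcsk1.

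The fall of Bdnf was not seen in the number of nuclei with a UMI of it, which was 21.6% and 19.8% in WT and 23.2% and 20.7% in KI. It lay in the nuclei with the most. The highest count in 1 nucleus was 16 and 27 UMIs in WT and 4 and 8 in KI, and nuclei with at least 5 Bdnf UMIs numbered 21 and 24 in WT and 0 and 3 in KI. Of Homer1 at least 10 UMIs were found in 13 and 18 WT and 0 and 1 KI nuclei, but it was also lower across the other nuclei: it was detected in 71.7% and 76.5% of WT against 66.4% and 64.9% of KI nuclei, and outside the 5% of nuclei richest in it the level was 170 and 166 CPM against 121 and 117 CPM. These cut-offs were chosen after the values were seen, and no test was run on them.

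In the WT mice, nuclei with high Nr4a3 counts also had higher mean levels of Bdnf and Homer1. Nuclei with at least 3 UMIs of Nr4a3 numbered 40 of 915 (4.37%, 95% exact interval 3.14 to 5.91) in WT replicate 1 and 42 of 711 (5.91%, 4.29 to 7.90) in WT replicate 2. In KI they numbered 10 of 569 (1.76%, 0.846 to 3.21) and 1 of 542 (0.185%, 0.00467 to 1.02). Within these WT nuclei Bdnf was at 325 and 406 CPM, against 36.8 and 25.8 CPM in the other WT CA3 nuclei. The WT nuclei with Nr4a3 held 149 of 430 and 231 of 402 UMIs of Bdnf, and 242 of 1711 and 343 of 1536 UMIs of Homer1. Nr4a2 was at 131 and 188 CPM against 12.5 and 12.8 CPM, Homer1 at 527 and 603 CPM against 192 and 180 CPM, and Pcsk1 at 107 and 128 CPM against 16.8 and 15.996 CPM. Npas4, which is induced by calcium entry, was at 19.6 and 75.5 CPM against 4.19 and 4.83 CPM. Grik4 differed little between these nuclei (1162 and 1086 CPM) and the other nuclei (1067 and 1031 CPM), but its level is conditioned by the rule. Kcnq5, which the rule did not use, was at 4557 and 3545 CPM in the WT nuclei with Nr4a3. In the other WT nuclei it was at 4438 and 4718 CPM, so it was lower inside in WT replicate 2. The nuclei with Nr4a3 are described further here. They were deeper, with medians of 10823 and 12232 UMIs against 7908 and 9084, and the levels above are per UMI.

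In the 10 nuclei of KI replicate 1 the values rested on few UMIs. Nr4a2 was at 31.5 CPM on 5 UMIs against 5.81 CPM in the other nuclei of that library, Pcsk1 at 12.6 CPM on 2 UMIs against 8.398 CPM. Bdnf was at 44.1 CPM on 7 UMIs against 29.7 CPM, Homer1 at 101 CPM on 16 UMIs against 138 CPM, and no UMI of Arc or Npas4 was seen. Outside the Nr4a3 nuclei the level of Bdnf overlapped between the groups (36.8 and 25.8 CPM in WT, 29.7 and 30.5 CPM in KI). Homer1 did not (192 and 180 CPM against 138 and 136 CPM), nor did Klf10 (35.7 and 36.5 CPM against 8.398 and 8.435 CPM). Klf10 was lower, not higher, inside the WT nuclei with Nr4a3 (23.97 and 12.3 CPM). CA1 nuclei with at least 3 Nr4a3 UMIs were also scarcer in KI, at 2.93% and 2.69% in WT against 0.317% and 0% in KI, where the exact interval of 0 among 433 nuclei reaches 0.848%. In DG nuclei the share was at most 0.224% in every library.

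**Figure D4:**
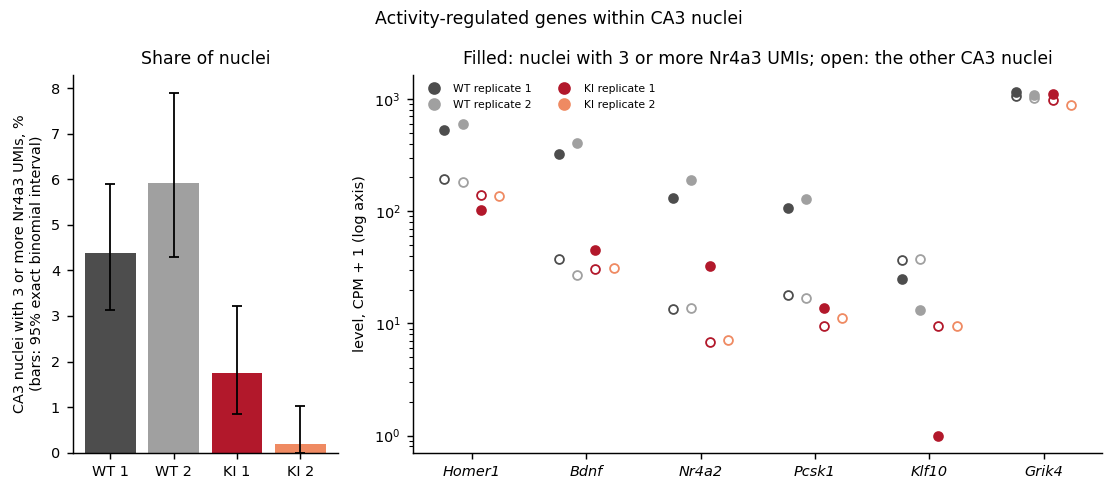
Left, the share of CA3 nuclei with at least 3 Nr4a3 UMIs per library (%, error bars are 95% exact binomial intervals), with both WT bars above 4% and both KI bars below 2%. Right, levels (CPM + 1, log axis) of 6 genes in those nuclei (filled) and in the other CA3 nuclei (open). Homer1, Bdnf, Nr4a2 and Pcsk1 are high in the WT nuclei with Nr4a3, while Grik4, which the rule used, differs little there. The lone nucleus of KI replicate 2 is left out on the right.

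The promoter of Pcsk1 is shown because it holds the whole cAMP response element, the site through which cAMP and calcium signals induce many genes of this list. The 250 bases before the RefSeq start (GRCm38.p6, plus strand, chr13:75089607-75089856) follow, with the element in capitals.
Pcsk1: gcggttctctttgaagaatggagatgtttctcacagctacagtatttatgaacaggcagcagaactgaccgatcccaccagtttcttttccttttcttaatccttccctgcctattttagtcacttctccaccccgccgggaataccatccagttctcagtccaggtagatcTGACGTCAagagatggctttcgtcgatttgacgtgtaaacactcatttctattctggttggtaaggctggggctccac
The element TGACGTCA was searched on both strands and starts 78 bases before the Pcsk1 start. It is in 1.55% of the 32851 promoter windows of this length. The shorter letters TGACG, which lie within it, are in 17.8% of the windows, and in those of Nr4a2, Nr4a3, Pcsk1 and 1 of the 2 Homer1 windows. Fosl2 had no match, and Arc and Klf10 had no window in the table. A match is a description of the sequence and does not show that the site is used.

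Of 19 chaperone, heat shock and endoplasmic reticulum stress genes tested, 4 fell (Hsp90b1, Hsph1, Xbp1, Calr), against 1.27% of all genes, none rose, 2 had a positive log2 fold change, and the median was -0.56. The summed level of the list was 847 to 908 CPM in the WT mice and 547 to 664 CPM in KI. Without KI replicate 1 there were 6 lower and 0 higher calls (beside 4.51% and 5.28% of all genes), and without KI replicate 2 there were 11 and 2 (beside 13.9% and 14.7%). Calr, the calcium-binding chaperone calreticulin, was at 45.9 and 43.4 CPM against 17.8 and 23.3 CPM (-1.03 ± 0.171, adjusted p = 0.0136). Hsp90b1, the chaperone GRP94, was at 61.2 and 58.8 CPM against 32.3 and 35.4 CPM (-0.74 ± 0.143, adjusted p = 0.0239). Xbp1, a transcription factor of the unfolded protein response, was at 16.2 and 21.4 CPM against 8.82 and 7.46 CPM (-1.10 ± 0.229). Calr was lower in both KI mice in CA1, DG, inhibitory and oligodendrocyte nuclei as well. It was at 0.405, 0.439, 0.199 and 0.225 UMIs per CA3 nucleus of WT 1, WT 2, KI 1 and KI 2 and at 0.307, 0.300, 0.141 and 0.191 per oligodendrocyte nucleus. Hsp90b1 was also lower in both KI mice in CA1, DG, inhibitory and oligodendrocyte nuclei, and Xbp1 in CA1, DG and inhibitory nuclei. The class-by-genotype term did not pass for Calr, Hsp90b1 or Xbp1 against CA1 or DG nuclei (lowest unadjusted p = 0.206 by edgeR), and for Hsph1 it passed against DG nuclei (-0.74 ± 0.161, adjusted p = 0.00567). For Calr, Hsp90b1 and Xbp1 these values do not show a fall particular to CA3 nuclei, and the part of free RNA was not tested. The chaperone Hspa5 was at 55.3 and 42.5 CPM against 19.999 and 33.1 CPM and did not pass (adjusted p = 0.0758). With the stricter rule Hsp90b1, Hsph1 and Xbp1 lost their call, and each of the 4 lost it without WT replicate 1 or WT replicate 2.

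The promoters of Hsp90b1 and Calr are shown because both hold the endoplasmic reticulum stress element, through which the unfolded protein response induces chaperones. The windows are on the minus strand of GRCm38.p6, chr10:86705445-86705694 and chr8:84846932-84847181, with the matches in capitals.
Hsp90b1: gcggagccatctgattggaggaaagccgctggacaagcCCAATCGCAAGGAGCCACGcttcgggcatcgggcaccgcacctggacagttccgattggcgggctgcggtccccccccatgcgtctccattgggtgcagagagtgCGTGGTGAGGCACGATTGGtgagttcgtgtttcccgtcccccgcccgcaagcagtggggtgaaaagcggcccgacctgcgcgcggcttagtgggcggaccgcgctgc
Calr: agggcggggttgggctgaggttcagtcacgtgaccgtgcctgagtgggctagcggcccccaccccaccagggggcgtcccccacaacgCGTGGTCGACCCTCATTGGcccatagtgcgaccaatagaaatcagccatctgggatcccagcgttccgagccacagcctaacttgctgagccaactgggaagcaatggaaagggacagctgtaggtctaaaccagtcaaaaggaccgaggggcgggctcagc
The letters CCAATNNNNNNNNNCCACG, on either strand, are in 37 of the 32851 windows (0.113%). Hsp90b1 holds them 212 bases and, reversed, 107 bases before its start, and Calr holds them reversed at 162 bases. The windows of Hsph1 and Xbp1 had no match.

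Of 25 genes of sterol and fatty acid synthesis tested, 3 fell (Hmgcs1, Msmo1, Elovl6), beside 1.27% of all genes, none rose, 22 had a negative log2 fold change, and the median was -0.55. Without KI replicate 1 there were 6 lower calls (beside 4.51% of all genes) and without KI replicate 2 there were 9 (beside 13.9%), with none higher. Msmo1, a sterol methyl oxidase, was at 29.5 and 28.8 CPM against 9.29 and 14.1 CPM (-1.24 ± 0.208, adjusted p = 0.0143). Elovl6, a fatty acid elongase, was at 87.2 and 80.3 CPM against 38.3 and 48.4 CPM (-0.87 ± 0.148, adjusted p = 0.0155), and lost its call without WT replicate 1. Hmgcs1, which makes the precursor of cholesterol, was at 23.6 and 25.0 CPM against 12.0 and 14.5 CPM (-0.79 ± 0.184, adjusted p = 0.0448), and lost its call in 6 alternatives.

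Of 37 glutamate receptor and auxiliary subunit genes tested, 4 passed, which is 10.8% beside 3.54% of all genes. Of 7 kainate receptor and Neto genes, 1 fell: Neto2, an auxiliary subunit that slows kainate receptors, was at 87.8 and 78.4 CPM against 23.9 and 45.3 CPM (-1.19 ± 0.227, adjusted p = 0.0224), and lost its call under the stricter rule and the rule without Grik4. The pore subunits Grik2 (1601 and 1562 CPM against 1522 and 1472 CPM) and Grik5 did not pass. Of 18 AMPA receptor genes, 1 fell, the auxiliary subunit Cacng2 (86.8 and 77.3 CPM against 45.04 and 47.2 CPM, -0.74 ± 0.139). Grin1, the obligatory NMDA receptor subunit, rose by 0.57 ± 0.131 and Grm8, a presynaptic metabotropic receptor, by 0.62 ± 0.126. These last 2 calls were lost under 6 and 4 alternatives. Cacng2, Grin1 and Grm8 each lost their call without WT replicate 1 and without WT replicate 2. None of the 15 GABA receptor genes and none of the 27 adhesion genes of the mossy fibre synapse passed by edgeR or DESeq2, and 0 and 4 of them had an unadjusted p under 0.05 by edgeR. Nectin3 is among the 27, and Grik4 is among the 7 kainate genes and the 37. The rule used both, so their levels are conditioned by it and their lack of a call is no result.

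Of 36 guidance genes tested, 2 rose and 1 fell, beside 2.27% and 1.27% of all genes. Their median log2 fold change was -0.14, and 14 of them had a positive value. Dcc, a netrin receptor, was at 2388 and 2180 CPM in the WT and 1239 and 1381 CPM in the KI libraries (-0.71 ± 0.098, adjusted p = 0.00652), and kept its call in all 13 alternatives. Per nucleus Dcc was also lower in both KI mice in CA1 and DG nuclei. It was at 5.89, 6.77, 1.48 and 1.94 UMIs per DG nucleus of WT 1, WT 2, KI 1 and KI 2, beside 21.1, 22.1, 13.8 and 13.3 per CA3 nucleus. Its ligand Ntn1 rose from 1.11 and 1.25 CPM to 4.41 and 3.63 CPM, a call lost in 9 alternatives. Of 42 potassium channel genes, Kcnq3 fell by 0.57 and the interacting protein Kcnip1 rose by 1.23. Kcnip1 was at 0.102, 0.121, 0.228 and 0.306 UMIs per CA3 nucleus of WT 1, WT 2, KI 1 and KI 2, against 2.43 to 3.18 per inhibitory nucleus, and the 5% of CA3 nuclei richest in it held 95.7% and 100% of its UMIs in WT and 59.2% and 63.3% in KI, with up to 28 in 1 nucleus of KI replicate 2. Of 19 calcium channel genes, the T-type channel Cacna1i fell by 0.90 and Cacnb4 by 0.52, and Cacna2d2 rose by 1.49. These counts, 2 of 42 and 3 of 19, stand beside 3.54% of all genes called in either direction. Kcnq3, Cacna1i, Cacnb4 and Cacna2d2 each lost their call without WT replicate 1 and without WT replicate 2. No gene among 14 sodium and HCN channels passed by edgeR or DESeq2, and 2 had an unadjusted p under 0.05 by edgeR.

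Peptide and neurotrophin genes moved both ways. Npy, the neuropeptide Y gene, was at 7.29 and 7.64 CPM in the WT mice and at 21.6 and 18.7 CPM in KI (1.53 ± 0.210, adjusted p = 0.00652), and Penk, the enkephalin precursor, at 2.10 and 1.53 CPM against 6.14 and 7.07 CPM (1.93 ± 0.355). Per nucleus Npy was at 0.064, 0.077, 0.241 and 0.181 UMIs in the CA3 nuclei of WT 1, WT 2, KI 1 and KI 2, beside 0.068, 0.068, 0.190 and 0.156 UMIs in DG nuclei, 0.063, 0.051, 0.140 and 0.111 in CA1 nuclei and 0.059, 0.067, 0.151 and 0.147 in oligodendrocyte nuclei. In the 4 libraries 5.68%, 6.75%, 20.2% and 15.9% of CA3 nuclei held a UMI of it. Penk was at 0.0186, 0.0155, 0.0685 and 0.0683 UMIs per CA3 nucleus and at 0.0168, 0.0138, 0.083 and 0.0869 per oligodendrocyte nucleus. Both genes were thus also higher in the oligodendrocyte nuclei of the KI mice, so these values do not show a change particular to CA3 nuclei, and the part of free RNA was not tested. The call of Penk was lost under the stricter rule and without WT replicate 2. Sorcs1, a sorting receptor of neuronal cargo, was at 23.7 and 21.1 CPM against 64.9 and 72.1 CPM (1.70 ± 0.152, adjusted p = 0.00128), and kept its call in all 13 alternatives. Per nucleus it was also higher in both KI mice in CA1, DG, inhibitory and oligodendrocyte nuclei. In DG nuclei of WT 1, WT 2, KI 1 and KI 2 it was at 0.187, 0.163, 1.79 and 1.65 UMIs, beside 0.210, 0.214, 0.724 and 0.696 in CA3 nuclei.

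Malat1, a nuclear long noncoding RNA, was at 100187 and 98672 CPM in the WT and 143217 and 134644 CPM in the KI libraries (0.58 ± 0.072, adjusted p = 0.00546). A transcript this abundant lowers the CPM of the other genes where it rises, and the fitted fold changes are corrected for this by TMM scaling. None of the 46 cytosolic ribosomal protein genes and none of the 37 nuclear respiratory chain genes passed by edgeR or DESeq2, with 1 of each at an unadjusted p under 0.05 by edgeR. The 11 mitochondrial transcripts tested had a median log2 fold change of 0.61 and no call by edgeR or DESeq2, with 3 at an unadjusted p under 0.05 by edgeR. Their sum was 170 and 179 CPM in the WT mice and 146 and 365 CPM in KI, so that KI replicate 2 stood apart and KI replicate 1 below WT.

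To ask whether the KI effect differed between CA3 and other neurons of the same mice, the class-by-genotype term was tested with the library as a block. Against CA1 nuclei 120 of 14799 genes passed (0.811%). Flt3, a receptor kinase, was at 29.1 and 31.7 CPM against 23.6 and 23.9 CPM in CA3 nuclei, while in CA1 nuclei it was at 7.28 and 10.3 CPM against 33.3 and 33.9 CPM (difference of log2 fold changes -2.25 ± 0.224, adjusted p = 6.58e-07). Flt3 was thus higher in CA3 than in CA1 nuclei of both WT mice and lower in both KI mice. Adarb2 (1.71 ± 0.177), Nek10 (1.77 ± 0.328) and Kcnip1 (1.42 ± 0.282) passed the KI test in CA3 and not in CA1 nuclei, and the difference itself passed. For Adarb2 it was lost under the stricter rule, for Nek10 under that rule, by DESeq2 and without KI replicate 2, and for Kcnip1 without nuclei of a doublet score over 0.25, by DESeq2 and without WT replicate 2. Sgpp2 had a log2 fold change of -0.03 in CA1 nuclei (difference -1.66 ± 0.402, adjusted p = 0.04). Gpc5 rose in CA1 nuclei too, by 1.62, and its rise was larger in CA3 nuclei (difference 0.71 ± 0.120, adjusted p = 0.00136). The difference did not pass for Klf10 (-1.47 in CA1 nuclei, adjusted p = 0.653), for Cthrc1 (2.35 in CA1 nuclei, adjusted p = 0.636) or for Bdnf (-0.31 in CA1 nuclei, adjusted p = 0.341). DESeq2 called 17 genes for this term, and leaving out 1 library gave 57 (WT replicate 1), 194 (WT replicate 2), 185 (KI replicate 1) and 236 (KI replicate 2).

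Against DG nuclei the term passed in 1114 of 15730 genes (7.08%). The kainate receptor subunit Grik3 was at 10.9 and 16.1 CPM in the WT mice and at 8.98 and 10.7 CPM in KI CA3 nuclei, and at 82.3 and 91.8 CPM against 11.1 and 13.1 CPM in DG nuclei (2.36 ± 0.231, adjusted p = 8.76e-07). The thyrotropin-releasing hormone receptor Trhr went opposite ways, from 5.32 and 8.34 CPM to 17.5 and 20.1 CPM in CA3 nuclei and from 24.8 and 35.7 CPM to 6.45 and 13.1 CPM in DG nuclei (3.07 ± 0.255). The tetraspanin Tspan18 was at 71.8 and 76.6 CPM against 97.2 and 114 CPM in CA3 nuclei, and at 120 and 128 CPM against 12.5 and 26.3 CPM in DG nuclei (3.17 ± 0.164). The collagen VI chain Col6a1 was at 16.6 and 22.1 CPM against 15.9 and 10.9 CPM in CA3 nuclei, and rose from 1.48 and 2.87 CPM to 30.6 and 29.6 CPM in DG nuclei (-4.36 ± 0.272). Grik3 and Col6a1 passed the KI test in DG and not in CA3 nuclei, while Trhr and Tspan18 passed in both, in opposite directions. Bdnf, which fell in CA3 nuclei, rose by 1.54 in DG nuclei (adjusted p = 0.000657 by edgeR), from 0.288 and 0.311 to 0.845 and 0.860 UMIs per nucleus, against 0.470 and 0.565 in the WT mice and 0.336 and 0.293 UMIs in KI CA3 nuclei (difference -2.30 ± 0.125, adjusted p = 6.44e-10). DESeq2 called 347 genes for the term, and 674 were called without WT replicate 1.

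CA3 nuclei that held Coch and those that held Iyd were then compared. Coch was detected in 3.51% to 4.98% of CA3 nuclei, against 0.317% to 1.79% of CA1 and 1.75% to 4.03% of inhibitory nuclei. Iyd was detected in 7.56% to 13.7% of CA3 nuclei and in at most 0.462% of CA1 nuclei. The 2 genes met in 7, 2, 0 and 2 nuclei of WT 1, WT 2, KI 1 and KI 2. Since the rule asks for 2 of 6 genes that include both, their detection in CA3 nuclei is a description. Nuclei with Coch and no Iyd (20 to 32 per library) were set against nuclei with Iyd and no Coch (43 to 118 per library), with the library as a block and the 8 rule genes left out. Coch and Iyd are genes of the rule, so these groups were cut along values that chose the nuclei. The calls among the other genes are a description of the chosen nuclei and are no independent evidence of cell classes. They numbered 317 of 5695 genes (5.57%), with 217 higher in Coch nuclei (3.81%) and 100 higher in Iyd nuclei (1.76%). Mice of both genotypes enter this comparison, which is about differences among CA3 nuclei and not about KI.

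Kcnmb2, an auxiliary subunit of BK potassium channels, was higher in the Coch nuclei. It was at 125, 216, 89.5 and 208 CPM in the Coch nuclei of WT 1, WT 2, KI 1 and KI 2 and at 1.74, 3.60, 0 and 5.91 CPM in the Iyd nuclei (log2 fold change 5.76 ± 0.298). Egfem1 was at 578, 748, 460 and 613 CPM against 74.6, 107, 51.0 and 357 CPM (2.26 ± 0.196), with KI replicate 2 nearest to overlap. The phosphodiesterase Pde11a (3.13 ± 0.312), the matrix gene Fbn1 (2.57 ± 0.332) and the calcium-binding Necab1 (2.55 ± 0.281) were higher in Coch nuclei of all 4 libraries. So were Mpped1 (2.32 ± 0.342), listed as a CA1 marker, and Tshz2 (2.42 ± 0.324), listed as a subicular marker. In the other direction the ephrin receptor Ephb1 was at 141, 53.97, 76.7 and 58.9 CPM in Coch nuclei and 265, 225, 139 and 110.3 CPM in Iyd nuclei (-1.22 ± 0.174). In each library it was higher in the Iyd nuclei. Neto2 (-1.05 ± 0.235) was also higher in Iyd nuclei. Of 27 guidance genes tested, 3 were higher in Coch and 7 in Iyd nuclei, and of 22 mossy fibre adhesion genes 6 and 2, to be read beside 3.81% and 1.76% of all genes. Without WT replicate 1 the number of calls was 190.

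**Figure D5:**
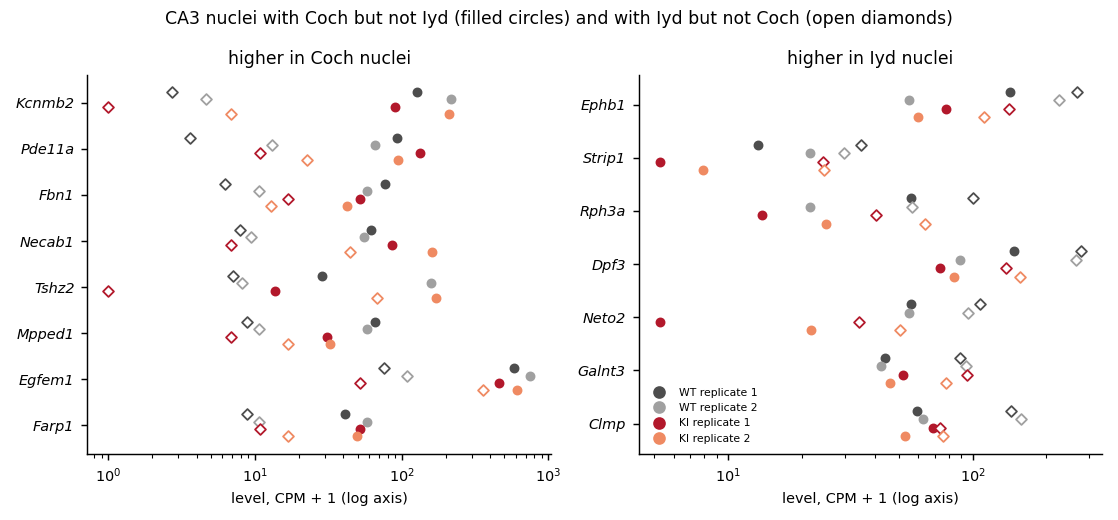
Levels (CPM + 1, log axis) of 8 genes higher in Coch nuclei and 7 genes higher in Iyd nuclei, for CA3 nuclei with Coch but not Iyd (filled circles) and with Iyd but not Coch (open diamonds), with 1 pair of points per library. Kcnmb2 shows no overlap, at 89.5 to 216 CPM against 0 to 5.91 CPM.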

How the data were processed

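Nuclei of frozen hippocampi were profiled with the 10x 3' droplet assay. The authors deposited filtered matrices of raw UMI counts per gene and barcode, made with Cell Ranger 7.0.1 on mm10, with 1 library for each of 2 WT and 2 KI mice (73009975 to 80913580 UMIs). Other settings are not given in the sources used here. The nuclei, gene lists and tests were chosen with earlier results of these data known.

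Counts of gated nuclei were summed per library. Genes passing filterByExpr were tested with edgeR 4.0.16 (TMM factors, quasi-likelihood test) and Benjamini-Hochberg adjustment, and DESeq2 1.42.0 was an alternative. The SE is the fold change over the square root of F. CPM are counts per 1000000 UMIs of the summed nuclei. Scrublet (expected rate 0.08) served only in an alternative without nuclei scored over 0.25. Other alternatives were library totals, no low-count filter, at least 1000 genes, other CA3 rules, equal depth, a replicate block and leaving out each library. The test was checked on simulated counts.

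Named genes were, per direction, the 12 with the largest fold change among those passing with at least 10 CPM on average and no overlap (5 for class terms, 8 for Coch against Iyd), without predicted genes, and list members that passed. Members that did not pass, the genes set against CA1 nuclei beyond those 5, and the cut-offs on Nr4a3, Bdnf and Homer1 UMIs were chosen after their values were seen. A few genes that this rule names are not reported here. Promoter sequences come from RefSeq.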

Additional observations from a re-analysis of the deposited data

Results flagged for a closer look

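The KI effect differed between CA3 and another neuron type of the same mice by a tested class-by-genotype term in the genes below, each given as the CA3 minus the other log2 fold change. Against CA1 nuclei the values were 1.77 for Nek10, 1.71 for Adarb2, 1.46 for Hcrtr2, an orexin receptor, 1.42 for Kcnip1 and 1.39 for Slc2a9, a urate transporter. They were -2.25 for Flt3, -2.12 for Mir670hg, -1.98 for Clec18a and -1.73 for Pappa2, a protease of growth factor binding proteins. Pappa2 was at 5.56 and 10.6 CPM in WT against 17.0 and 12.2 CPM in KI CA3 nuclei, and at 4.46 and 8.03 CPM against 34.1 and 43.0 CPM in CA1 nuclei. Of 10 alternatives the difference was lost in 5 for Hcrtr2, in 3 for Nek10 (DESeq2, the stricter rule, without KI replicate 2), in 3 for Kcnip1 (DESeq2, without nuclei of a doublet score over 0.25, without WT replicate 2), in 2 for Clec18a (DESeq2, without WT replicate 2), in 1 for Adarb2 (the stricter rule), in 1 each for Slc2a9 and Pappa2 (DESeq2), and in 0 for Flt3 and Mir670hg.

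Against DG nuclei the values were 3.17 for Tspan18, 3.07 for Trhr, 2.36 for Grik3, 2.35 for Ackr3, a chemokine receptor, and 2.33 for Nek10. They were -4.36 for Col6a1, -2.93 for Efemp1, -2.55 for Far2os2, -2.52 for Cdh7 and -2.43 for Pparg. These 10 differences passed in all 10 alternatives. Efemp1, a matrix protein, was at 24.1 and 23.3 CPM in WT against 12.3 and 12.05 CPM in KI CA3 nuclei, and at 4.96 and 3.79 CPM against 12.7 and 21.4 CPM in DG nuclei.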

How the results depend on the processing

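The 524 genes called between KI and WT became 1654 without the low-count filter, 332 at equal depth, 215 under the stricter rule and 238 with the rule without Grik4, and leaving out 1 library gave 160 to 4452 (160 without WT replicate 1, 236 without WT replicate 2, 1515 without KI replicate 1, 4452 without KI replicate 2). With 1 library left in an arm, that library is assumed to vary like the other group. With the replicate number as a block the count was 926, but same-numbered libraries did not deviate together (r = -0.02 over genes), so the numbers do not pair the mice. The term against CA1 nuclei gave 17 calls by DESeq2, 203 without the filter and 57 to 236 with 1 library left out. That against DG nuclei gave 347 by DESeq2 and 674 to 1642. Coch against Iyd nuclei gave 122 by DESeq2, 94 after thinning nuclei to 2000 UMIs and 190 to 295 with 1 library left out. The log2 ratio of CA3 shares was -0.90 after thinning and -0.48 to -0.30 with 1 library left out. No called value changed direction in the alternatives run. Among single genes calls were lost under the stricter rule (37 of 92), with the rule without Grik4 (29 of 72), without WT replicate 1 (36 of 108), without WT replicate 2 (39 of 107), at equal depth (17 of 72), by DESeq2 (14 of 97) and with library totals (12 of 108). With 2 mice a group the median SE of a log2 fold change was 0.217, which limits what small changes could pass.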
